A study of Homo sapiens with 18 samples.

Results

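The genes described here are 9 markers of the mesenchymal state and targets of transforming growth factor beta (TGF-beta), which were chosen by symbol as VIM, FN1, SPARC, AXL, TGFBI, CCN1, CCN2, THBS1 and LOX. They are 9 of the 61541 genes listed in each of the deposited tables of read counts, and all 9 passed the filter on low counts in both tables. RNA was sequenced from A549, an established line of human lung adenocarcinoma cells labelled as wild type, grown with or without 5 mM sodium propionate (SP), the salt of a short-chain fatty acid. The first table held untreated cells at 3 days (control 3 days), SP for 3 days and SP for 12 days, and the second held untreated cells at 24 h (control 24 h), SP for 3 h and SP for 24 h. Each group had 3 libraries, 18 in all. No untreated libraries at 3 h or 12 days were analysed here, so SP and the time in culture cannot be told apart in the comparisons of SP 3 h with control 24 h and of SP 12 days with control 3 days. The question was whether these genes were lower in cells exposed to SP, which the study examined as a possible agent to hold carcinoma cells in an epithelial state.

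In the epithelial-mesenchymal transition, cells lose their junctions, gain vimentin filaments and deposit and remodel extracellular matrix. TGF-beta is a strong inducer of this program. It acts through receptor kinases and SMAD transcription factors, and many of its targets are secreted matrix proteins, several of which are also driven by the co-activators YAP and TAZ with the DNA-binding TEAD factors. Carcinoma lines such as A549 carry epithelial keratins together with vimentin, and they turn on further mesenchymal genes when TGF-beta is added.

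The 9 genes did not move as a group. SPARC was 5.05-fold higher after 24 h of SP, 5.02-fold higher after 3 days and 5.21-fold higher after 12 days, while THBS1 was 1.57-fold and 1.92-fold lower at 3 and 12 days. VIM was 1.57-fold lower at 24 h and 1.26-fold and 1.37-fold higher at 3 and 12 days. TGFBI was 2.54-fold higher at 3 days, FN1 was 2.18-fold lower at 12 days, and CCN1 was 2.07-fold higher at 3 h and 1.65-fold lower at 12 days. Each of these changes passed edgeR's quasi-likelihood test at an adjusted p under 0.05, the threshold behind "rose" and "fell" throughout. Adjusted p-values are by Benjamini-Hochberg over all genes tested in the comparison. Levels are CPM, read counts relative to the library total, scaled by TMM factors (normalised CPM), and each table was scaled on its own.

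Promoter sequence from RefSeq (GRCh38.p14) was at hand for 8 of the 9 genes, in 11 windows, with none for CCN1. The 250 bases before the RefSeq start are printed for TGFBI and THBS1, which moved in opposite directions at 3 and 12 days, and for CCN2, a long-studied target of YAP and TEAD. Capitals mark the TEAD core motif GGAATG and the GC box GGGCGG on either strand.
TGFBI (chr5:136028738-136028987, plus strand): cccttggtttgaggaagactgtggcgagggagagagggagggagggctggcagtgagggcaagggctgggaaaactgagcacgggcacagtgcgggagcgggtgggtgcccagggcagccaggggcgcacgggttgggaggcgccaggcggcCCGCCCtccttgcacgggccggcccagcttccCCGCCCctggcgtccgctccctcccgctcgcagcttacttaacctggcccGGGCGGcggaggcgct
THBS1 (chr15:39580829-39581078, plus strand): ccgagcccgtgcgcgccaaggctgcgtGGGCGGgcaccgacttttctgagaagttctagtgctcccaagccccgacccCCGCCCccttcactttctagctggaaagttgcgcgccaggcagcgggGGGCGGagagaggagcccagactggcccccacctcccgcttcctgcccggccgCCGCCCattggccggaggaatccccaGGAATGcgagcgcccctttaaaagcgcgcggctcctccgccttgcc
CCN2 (chr6:131951373-131951622, minus strand): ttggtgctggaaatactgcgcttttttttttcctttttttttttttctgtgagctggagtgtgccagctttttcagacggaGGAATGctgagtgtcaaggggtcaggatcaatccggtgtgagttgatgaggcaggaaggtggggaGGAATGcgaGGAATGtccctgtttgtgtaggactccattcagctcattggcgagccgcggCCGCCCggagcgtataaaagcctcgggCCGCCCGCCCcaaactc
The TEAD core was found 3 times in the CCN2 window, once in that of THBS1 and in no place in that of TGFBI. Of 35116 promoter windows of the same length, 11.9% held it. Elsewhere among the 9 genes it occurred once in the SPARC window and once in the second of the AXL windows. GC boxes were in 7 of the 11 windows, against 42.6% of all windows, with 6 in FN1, 4 in THBS1, 3 each in TGFBI and CCN2, 2 in the first AXL window and 1 each in VIM and the first LOX window. SPARC and the other AXL and LOX windows held none. CAGACA, a motif bound by SMAD factors, was in the second AXL window and the first LOX window, against 13.6% of all windows, and TGACTCA, the AP-1 motif, was in none of the 11, against 4.2%. These matches describe letters in the windows and are no evidence of binding.

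Library totals ranged from 14187401 to 43765330 counts and TMM factors from 0.957 to 1.037. Mitochondrial genes took 5.82 to 7.04% of counts in the first table and 3.15 to 4.11% in the second. All 5 epithelial markers of the line, KRT8, KRT18, KRT19, EPCAM and CDH1, were detected, and all 5 rose at 24 h, 3 days and 12 days. Replicate 3 of control 24 h, of SP 12 days and of SP 3 h stood apart in its group. Their mean correlations with the other libraries of the group were 0.974, 0.985 and 0.984, and replicate 1 of control 24 h stood at 0.978. For some values a fit without 1 library is given beside the gene. Values given only once may have shifted as well. No libraries agreed within sampling noise. The study describes libraries of the short exposures as biological replicates. For the longer exposures the labels do not say whether replicates were separate cultures, so p-values there measure a spread that may be technical. In bulk RNA, fewer cells that express a gene and less RNA per cell cannot be told apart.

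VIM (ENSG00000026025, chr10:17228241-17237593) encodes vimentin, the intermediate filament protein of mesenchymal cells, and fell at 24 h but rose at 3 and 12 days. In the second table it stood at 1111, 1023 and 1162 normalised CPM in control 24 h, at 1049, 1011 and 1159 after SP 3 h, and at 710.4, 693 and 702 after SP 24 h. All SP 24 h libraries lay below all libraries of the other 2 groups, which overlapped each other. VIM fell by 0.65 on the log2 scale at 24 h (SE 0.09, edgeR adjusted p = 0.00109), whereas at 3 h the log2 difference was -0.03 (SE 0.09, edgeR adjusted p = 0.873). In the first table the values were 402, 415 and 448 in control 3 days, 514, 548 and 536 after SP 3 days, and 607, 628 and 501 after SP 12 days. Both SP groups lay wholly above the control, with a log2 fold change of 0.34 at 3 days (SE 0.09, edgeR adjusted p = 0.00668) and 0.45 at 12 days (SE 0.09, edgeR adjusted p = 7.06e-04).

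The VIM effects at 24 h and at 3 days differed by 1.02 on the log2 scale in a joint fit of all 18 libraries (SE 0.14, edgeR adjusted p for the difference = 4.81e-04). The untreated levels differed as well, with a mean of 1099 ± 70.2 normalised CPM at 24 h and 422 ± 23.7 at 3 days (SD, n = 3 each). Since the tables were scaled separately and hold different experiments, the sampling time and the table cannot be told apart in that contrast of levels. Exposure time and table cannot be told apart in the difference of the effects either. After SP the means were 702 ± 8.47 at 24 h, 533 ± 17.01 at 3 days and 578 ± 67.8 at 12 days (SD, n = 3 each), which lie between the 2 controls. VIM exons share 1275 bases with antisense transcripts, among them VIM-AS1. The strand setting of the counting is not given in the sources used here, so reads of the 2 strands may be mixed.

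AXL (ENSG00000167601, chr19:41219223-41261766) encodes a receptor tyrosine kinase for the ligand GAS6 that marks mesenchymal carcinoma cells. It was measured at 470.4, 434 and 725 normalised CPM in control 24 h, at 643, 544 and 507 after SP 3 h, and at 343, 354 and 365 after SP 24 h. Every SP 24 h library was below every control library, and control replicate 3 was the highest of the 9. AXL fell by 0.62 on the log2 scale at 24 h (SE 0.18, edgeR adjusted p = 0.0325), and by 0.36 without control replicate 3 (SE 0.12, edgeR adjusted p = 0.0411). Leaving out any 1 of the SP 24 h libraries took the adjusted p to between 0.0791 and 0.0979. With the replicate number as a block in the fit of the whole table the edgeR adjusted p was 0.0546, and with the block in a fit of the 2 groups alone it was 0.0219. The AXL difference at 3 h was 0.06 (SE 0.18, edgeR adjusted p = 0.894). It was 0.32 without control replicate 3 and -0.09 without control replicate 2 (edgeR adjusted p = 0.121 and 0.838).

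The longer exposures left AXL near its control. Its values were 146, 148 and 169.5 in control 3 days, 143, 150.2 and 154 after SP 3 days and 138, 151 and 106 after SP 12 days. The log2 differences were -0.05 at 3 days (SE 0.11, edgeR adjusted p = 0.731) and -0.23 at 12 days (SE 0.11, edgeR adjusted p = 0.0960), with overlapping groups in both. Without SP 12 days replicate 2 the AXL value at 12 days was -0.36 (edgeR adjusted p = 0.0106). The difference between the AXL effects at 3 days and at 24 h, 0.61 on the log2 scale (SE 0.24), did not pass the test (edgeR adjusted p = 0.141), and was 0.28 without control 24 h replicate 3. With offsets for GC content and length, that AXL difference passed (edgeR adjusted p = 0.0483), as did AXL at 12 days (edgeR adjusted p = 0.0428). Without SP 12 days replicate 3, AXL at 12 days was -0.11 (edgeR adjusted p = 0.220). The mean of untreated cells was 543 ± 159 normalised CPM at 24 h and 154 ± 13.2 at 3 days (SD, n = 3 each), each scaled in its own table.

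**Figure D1:**
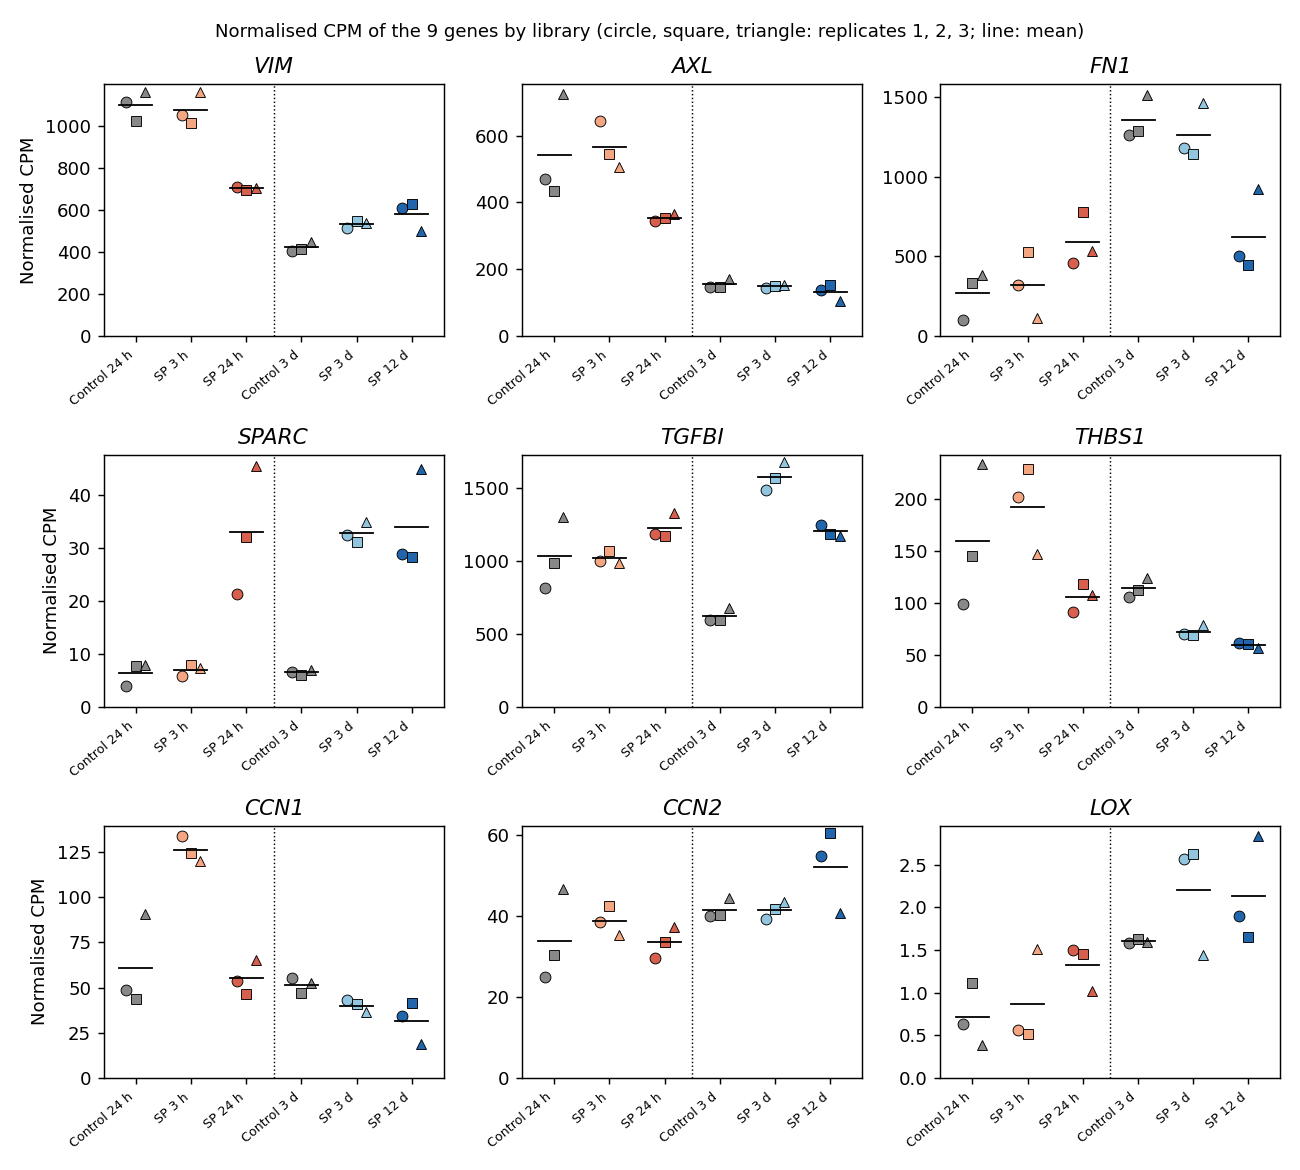
Normalised CPM (vertical axis, linear, from 0) of each gene in the 18 libraries, by group on the horizontal axis, with the mean of 3 as a line and the dotted line parting the separately scaled tables. SPARC stays below 8 CPM in control and SP 3 h libraries and lies above 21 in the other SP libraries, and VIM of SP 24 h lies below its control while VIM of SP 3 and 12 days lies above.

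FN1 (ENSG00000115414, chr2:215360440-215436073) encodes fibronectin, a matrix glycoprotein and a classic TGF-beta target. Its libraries varied widely at the short times, with 99.95, 334 and 385 normalised CPM in control 24 h, 319, 530.2 and 115 after SP 3 h, and 459.9, 779 and 532 after SP 24 h. All SP 24 h libraries exceeded all control libraries, yet control replicate 1 was more than 3-fold below the other 2. The log2 difference at 24 h was 1.11 (SE 0.58, edgeR adjusted p = 0.183). At 24 h, same-numbered libraries deviated together for replicates 1 and 3, but for replicate 2 no more than libraries with different numbers. With the replicate number as a block in a fit of the 2 groups the log2 fold change was 1.28 (edgeR adjusted p = 0.0312). The block in the fit of the whole table gave 1.15 (edgeR adjusted p = 0.175), and the fit without control replicate 1 gave 0.69 (edgeR adjusted p = 0.453). Without control replicate 3 the value was 1.44 (edgeR adjusted p = 0.117). The FN1 difference at 3 h was 0.24 (SE 0.58, edgeR adjusted p = 0.857). It ranged from -0.33 to 0.64 with each library left out.

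At 3 days FN1 was at 1266, 1288 and 1516 normalised CPM in the control and at 1179, 1144 and 1466 with SP, a log2 difference of -0.10 (SE 0.26, edgeR adjusted p = 0.769). After SP 12 days it was at 503, 445 and 921, so that replicate 3 stood well above the other 2 and all 3 lay below the control. FN1 fell by 1.12 on the log2 scale at 12 days (SE 0.26, edgeR adjusted p = 0.00700), and by 1.53 without replicate 3 of SP 12 days (SE 0.10, edgeR adjusted p = 4.14e-12). From SP 3 days to SP 12 days the log2 difference was -1.02 (SE 0.26, edgeR adjusted p = 0.0509), and without that replicate -1.43 (edgeR adjusted p = 2.03e-10). The FN1 values at 24 h and at 12 days had opposite signs, but that at 24 h did not pass the test. The difference between these times was not tested. Means of untreated cells were 273 ± 152 at 24 h and 1357 ± 138 at 3 days (SD, n = 3 each).

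SPARC (ENSG00000113140, chr5:151661096-151686975) encodes osteonectin, a secreted collagen-binding protein made by mesenchymal cells, and had the largest fold of the 9 genes at 24 h, 3 days and 12 days. In control 24 h its values were 3.86, 7.66 and 7.99 normalised CPM, and after SP 3 h they were 5.78, 7.98 and 7.38. After SP 24 h they were 21.4, 32.0 and 45.6, above every library of the other 2 groups. SPARC did not pass the test at 3 h, with a log2 difference of 0.12 (SE 0.33, edgeR adjusted p = 0.877), and rose at 24 h by a log2 fold change of 2.34 (SE 0.33, edgeR adjusted p = 0.00113). From SP 3 h to SP 24 h the log2 fold change was 2.22 (SE 0.33, edgeR adjusted p = 0.00263).

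The first table gave folds close to that at 24 h. Control 3 days held 6.65, 5.95 and 7.03 normalised CPM, SP 3 days 32.5, 31.3 and 35.0, and SP 12 days 28.8, 28.3 and 45.0, replicate 3 of SP 12 days being the highest. The log2 fold change was 2.33 at 3 days (SE 0.17, edgeR adjusted p = 7.35e-08) and 2.38 at 12 days (SE 0.17, edgeR adjusted p = 4.73e-08), or 2.11 at 12 days without replicate 3. The difference between the effects at 3 days and 24 h was 0.03 on the log2 scale (SE 0.39, edgeR adjusted p = 0.973). Per length SPARC remained far less abundant than vimentin or TGFBI transcripts, at 7.10 RPKM in SP 3 days. Its 4638 bases of exon share 191 with an antisense transcript, CLMAT3.

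TGFBI (ENSG00000120708, chr5:136028988-136063818) encodes a matrix protein named for its induction by TGF-beta. It had the lowest adjusted p of the set at 3 days, where its values were 598, 593 and 677 normalised CPM in the control and 1491, 1571 and 1677 with SP. SP 12 days stood between them, at 1248, 1189 and 1174. TGFBI rose by a log2 fold change of 1.34 at 3 days (SE 0.09, edgeR adjusted p = 7.22e-09) and 0.95 at 12 days (SE 0.09, edgeR adjusted p = 2.65e-07), and was lower at 12 days than at 3 days by 0.39 (SE 0.09, edgeR adjusted p = 0.0109), or 0.0510 without SP 3 days replicate 3.

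In the shorter exposures TGFBI was already abundant without SP. Control 24 h held 818, 988 and 1302 normalised CPM, SP 3 h 998, 1072 and 987, and SP 24 h 1183, 1171 and 1328. The groups overlapped, and the log2 difference was -0.02 at 3 h (SE 0.15, edgeR adjusted p = 0.952) and 0.24 at 24 h (SE 0.15, edgeR adjusted p = 0.259). The control libraries were spread, and the value at 24 h moved both ways with them. Without control replicate 3 the log2 fold change at 24 h was 0.44 (SE 0.12, edgeR adjusted p = 0.0207). Without control replicate 1 it was 0.07 (SE 0.14, edgeR adjusted p = 0.757). The TGFBI effect at 3 days exceeded that at 24 h by 1.14 on the log2 scale (SE 0.19, edgeR adjusted p for the difference = 0.00189), and by 0.88 without control 24 h replicate 3 (edgeR adjusted p = 0.00157). As for VIM, the exposure time and the table cannot be told apart in this difference.

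THBS1 (ENSG00000137801, chr15:39581079-39599466) encodes thrombospondin 1, a matricellular protein that can activate latent TGF-beta. At 3 days its values were 106, 113 and 125 normalised CPM in the control and 69.9, 69.7 and 78.6 with SP, and after SP 12 days they were 61.4, 60.2 and 56.8. The 3 groups did not overlap, and each longer exposure was lower. THBS1 fell by 0.65 on the log2 scale at 3 days (SE 0.09, edgeR adjusted p = 1.26e-05) and by 0.94 at 12 days (SE 0.09, edgeR adjusted p = 2.42e-07). The step from 3 to 12 days was -0.29 (SE 0.09, edgeR adjusted p = 0.0496), and of the 6 fits that left out a library it passed only without SP 12 days replicate 3, with edgeR adjusted p-values of 0.0782 to 0.172 in the others.

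At the short times THBS1 was spread widely, at 99.0, 145 and 234 normalised CPM in control 24 h, 202, 229.6 and 147 after SP 3 h, and 91.2, 118 and 107 after SP 24 h. Control replicate 3 was again the highest. The log2 differences were 0.27 at 3 h (SE 0.29, edgeR adjusted p = 0.629) and -0.59 at 24 h (SE 0.29, edgeR adjusted p = 0.156). Without control replicate 1 the THBS1 value at 24 h was -0.87 (edgeR adjusted p = 0.0421) and without replicate 3 it was -0.21 (edgeR adjusted p = 0.449). SP 24 h was below SP 3 h in every library, but the log2 difference of -0.87 did not pass the test (SE 0.29, edgeR adjusted p = 0.0656). It passed with DESeq2 (adjusted p = 0.0282) and with edgeR in fits of the 2 groups without and with a replicate block (adjusted p = 0.0118 and 0.0214). At 3 h the THBS1 value was 0.66 without control replicate 3 (edgeR adjusted p = 0.0792) and 0.00 without control replicate 1 (edgeR adjusted p = 0.998). THBS1 exons share 859 bases with FSIP1 and THBS1-AS1 on the other strand.

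CCN1 and CCN2 are matricellular proteins of the CCN family and standard readouts of YAP and TEAD, and CCN1 is also an immediate early gene. CCN1 (ENSG00000142871, chr1:85580761-85584589) was the only gene of the 9 past the test at 3 h. Control 24 h held 48.5, 43.8 and 90.5 normalised CPM, SP 3 h 134, 124 and 119.9, and SP 24 h 53.6, 46.7 and 65.0. All SP 3 h libraries lay above all control libraries, and the SP 24 h libraries lay back within the control range. CCN1 rose at 3 h by a log2 fold change of 1.05 (SE 0.25, edgeR adjusted p = 0.0287), or 1.45 without control replicate 3 (SE 0.15, edgeR adjusted p = 0.00111). Leaving out any other of the 6 libraries gave adjusted p-values of 0.0573 to 0.113. From SP 3 h to SP 24 h CCN1 fell by 1.19 on the log2 scale (SE 0.26, edgeR adjusted p = 0.0123), and the difference of SP 24 h from control was -0.15 (SE 0.25, edgeR adjusted p = 0.682), or 0.25 without control replicate 3 (edgeR adjusted p = 0.196). Without control replicate 2 that difference was -0.35 (edgeR adjusted p = 0.339).

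In the first table CCN1 was at 55.4, 46.8 and 52.4 normalised CPM in control 3 days, 42.9, 40.6 and 36.3 after SP 3 days, and 34.2, 41.6 and 18.6 after SP 12 days. Both SP groups lay below the control. CCN1 fell by 0.72 on the log2 scale at 12 days (SE 0.25, edgeR adjusted p = 0.0381), and by 0.46 without replicate 3 of SP 12 days (SE 0.10, edgeR adjusted p = 3.15e-04). Without any 1 of the control libraries, or without SP 12 days replicate 1, the adjusted p was 0.0541 to 0.106. The log2 difference of CCN1 at 3 days was -0.37 (SE 0.24, edgeR adjusted p = 0.248), and in a fit of those 2 groups alone the edgeR adjusted p was 0.00109.

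CCN2 (ENSG00000118523, chr6:131948176-131951372), whose window holds the 3 TEAD cores printed above, had no log2 difference over 0.33 from control. Its values were 24.8, 30.3 and 46.7 normalised CPM in control 24 h, 38.5, 42.5 and 35.4 after SP 3 h, and 29.5, 33.7 and 37.2 after SP 24 h. At 3 days they were 40.02, 40.2 and 44.3 in the control and 39.3, 41.7 and 43.4 with SP. These groups overlapped, with log2 differences of 0.19 at 3 h (SE 0.21), -0.02 at 24 h (SE 0.21) and -0.00 at 3 days (SE 0.12), for edgeR adjusted p-values of 0.650, 0.947 and 0.991. Without control replicate 3 the values at 3 h and 24 h were 0.49 and 0.28 (edgeR adjusted p = 0.0624 and 0.168). Without control replicate 1 they were -0.01 and -0.23 (edgeR adjusted p = 0.983 and 0.446). After SP 12 days CCN2 was at 54.9, 60.6 and 40.9, replicate 3 lying within the control range and the other 2 above it. The log2 fold change of 0.33 at 12 days passed the test (SE 0.12, edgeR adjusted p = 0.0320). Without replicate 3 of SP 12 days it was 0.46 (edgeR adjusted p = 4.41e-05), and without SP 12 days replicate 2 it was 0.19 (edgeR adjusted p = 0.202). Leaving out control replicate 1 or 2 or SP 12 days replicate 1 also ended the call of CCN2, with edgeR adjusted p-values of 0.107 to 0.128. CCN2 shares 278 exon bases with LINC01013 on the other strand.

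LOX (ENSG00000113083, chr5:122063195-122078413) encodes lysyl oxidase, which crosslinks collagen and elastin. It was the rarest of the set, with 8 to 65 reads per library, so that its values rest on few counts. Normalised CPM were 0.635, 1.11 and 0.386 in control 24 h, 0.564, 0.519 and 1.51 after SP 3 h, and 1.497, 1.455 and 1.013 after SP 24 h. At the longer times they were 1.58, 1.63 and 1.60 in control 3 days, 2.56, 2.62 and 1.44 after SP 3 days, and 1.90, 1.65 and 2.84 after SP 12 days. LOX passed the test in none of the comparisons with control, with log2 differences of 0.35 (SE 0.51), 0.94 (SE 0.47), 0.46 (SE 0.28) and 0.42 (SE 0.27) in order of exposure, from 3 h to 12 days. The edgeR adjusted p-values were 0.736, 0.163, 0.188 and 0.216, with a raw p of 0.0756 at 24 h as the smallest. With the replicate block in a fit of the 2 groups, LOX at 24 h was 0.92 (edgeR adjusted p = 0.0437). Without control 24 h replicate 3 it was 0.59 (edgeR adjusted p = 0.348), and without SP 12 days replicate 3 the value at 12 days was 0.12 (edgeR adjusted p = 0.731). The LOX value at 3 h was -0.35 without SP 3 h replicate 3 and 0.82 without control replicate 2 (edgeR adjusted p = 0.686 and 0.440). It was 0.01 without control replicate 3 (edgeR adjusted p = 0.993).

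**Figure D2:**
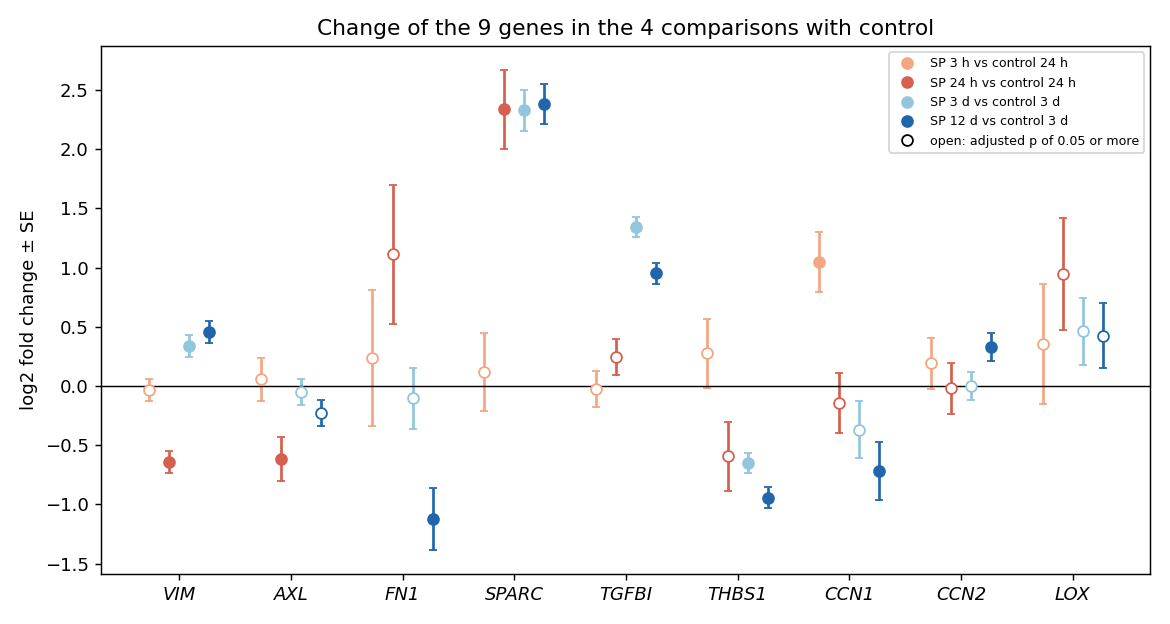
Log2 fold change of each gene against its control (vertical axis, bars are 1 SE) in the 4 comparisons, filled where the adjusted p was under 0.05. SPARC is filled and above 2 at 24 h, 3 days and 12 days, VIM is below 0 at 24 h and above 0 at 3 and 12 days, and 1, 3, 4 and 7 of the 9 points are filled in order of exposure, from 3 h to 12 days. Replicates were more spread at the short exposures, so a change of equal size passed less easily there.

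Counted over the set, 1 of 9 genes passed the test at 3 h, against 11.5% of all genes tested, and 3 of 9 at 24 h, 1 higher and 2 lower, against 28.8%. With the replicate block in a fit of the 2 groups, 5 of 9 passed at 24 h, against 38.3% of all genes in that fit. Without control 24 h replicate 3, CCN1 was still the gene past the test at 3 h, against 12.4% of all genes in that fit. The log2 differences of the other 8 were then 0.01 to 0.66 (edgeR adjusted p-values of 0.0624 to 0.993). At 3 days 4 of 9 passed, 3 higher and 1 lower, against 48.6% of all genes, and at 12 days 7 of 9, 4 higher and 3 lower, against 49.8%. The shares of the set at 3 h, 24 h and 3 days were therefore near the background. The median log2 difference of the 9 genes was 0.19, -0.02, -0.00 and 0.33 in that order, beside 0.00, -0.01, -0.02 and -0.00 for all genes tested. A stricter rule, an adjusted p under 0.0001 with a fold of at least 2, was met in edgeR by SPARC and TGFBI at 3 days, where 6.58% of all genes met it upwards, and by SPARC at 12 days, where 6.88% did. With DESeq2, the study's own test, SPARC also met it at 24 h (log2 fold change 2.32, DESeq2 adjusted p = 3.29e-10). The share of all genes that met this rule with DESeq2 was not counted.

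The libraries of SP and control did not overlap for 1 of 9 genes at 3 h, against 27.3% of all genes tested, and for 4 at 24 h, against 44.4%. At 3 days this held for 5 genes, against 61.2%, and at 12 days for 7, against 55.9%. SP 3 days and SP 12 days share control 3 days, and SP 3 h and SP 24 h share control 24 h, so values that agree within a table are not independent.

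Comparing exposures directly, 4 of the 9 genes differed between SP 24 h and SP 3 h, against 20.1% of all genes, SPARC being higher and VIM, AXL and CCN1 lower at 24 h. AXL differed by -0.67 on the log2 scale (SE 0.18, edgeR adjusted p = 0.0306), with adjusted p-values of 0.0568 to 0.104 without any 1 of the SP 24 h libraries or without SP 3 h replicate 1 or 2. CCN1 had an edgeR adjusted p of 0.0570 there without SP 24 h replicate 2. The groups did not overlap for 6 of 9 genes, against 44.9%. Between SP 12 days and SP 3 days, TGFBI and THBS1 were lower at 12 days, 2 of 9 against 8.10% of all genes, and 3 of 9 did not overlap, against 26.8%. Without replicate 3 of SP 12 days, VIM, FN1 and CCN2 passed as well, 5 of 9 against 28.1% of all genes in that fit. The SP effect differed between 3 days and 24 h for VIM and TGFBI, 2 of 9 against 6.28% of all genes, and for both the value at 3 days was the higher. These times lie in different tables, so exposure time and table cannot be told apart there.

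Per length, as RPKM, the normalised CPM divided by the length of the union of annotated exons in kilobases, TGFBI took the place of VIM as the most abundant of the 9 after SP 24 h, SP 3 days and SP 12 days. At 24 h this held for that length only. Control 24 h was led by VIM at 212 RPKM, followed by TGFBI at 134 and AXL at 106, whose libraries overlapped. THBS1, CCN1, FN1 and CCN2 followed between 17.4 and 14.5, each overlapping the next, with SPARC at 1.40 and LOX at 0.127. After SP 24 h TGFBI stood at 159, above VIM at 136 in every library. In control 3 days VIM at 81.5, TGFBI at 80.7 and FN1 at 78.8 overlapped. TGFBI then led at 205 RPKM in SP 3 days, over VIM at 103 and FN1 at 73.4, and at 156 in SP 12 days, over VIM at 112. In SP 12 days FN1 at 36.2 overlapped AXL at 25.6, which overlapped CCN2 at 22.3. THBS1 and SPARC, apart at 12.5 and 1.41 RPKM in control 3 days, were at 7.94 and 7.10 in SP 3 days and overlapped at 6.49 and 7.34 in SP 12 days. Dividing by the longest transcript instead of the exon union exchanged some neighbours, FN1 passing TGFBI in control 3 days and SPARC passing THBS1 in SP 3 days, as 2 examples. In SP 24 h TGFBI and VIM were level by that length, at means of 263 RPKM each, with VIM the higher in replicates 1 and 2.

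**Figure D3:**
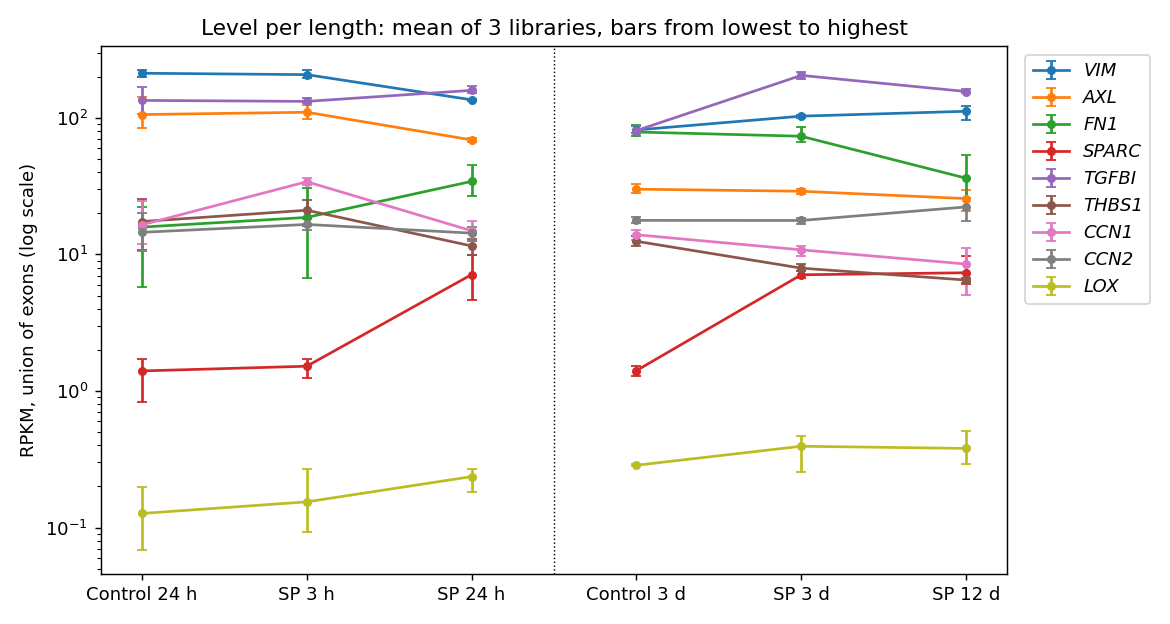
Level per length of the 9 genes (RPKM, log scale) in each group, as the mean of 3 libraries with bars from the lowest to the highest, lines joining groups of 1 table and the dotted line parting the separately scaled tables. By this length TGFBI lies above VIM in SP 24 h, SP 3 days and SP 12 days, and SPARC lies far below THBS1 in both controls and near it in SP 3 and 12 days.

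The other genes of these pathways were counted from lists that leave out the 9. The lists were chosen with earlier results of these data known, and they share some genes. Where 5 or fewer genes passed, some are named that the rule for named genes does not reach, and these were chosen after their values were seen. A pan-cancer list of mesenchymal genes that the study used, 52 with VIM, FN1, SPARC and AXL, left 36 tested genes in the second table and 34 in the first. Of these, 2 rose (PMP22 and DACT1) and 2 fell (BNC2 and CMTM3) at 3 h, 11 rose and 7 fell at 24 h, 19 rose and 4 fell (CNRIP1, VCAN, ZEB2 and MSRB3) at 3 days, and 18 rose and 7 fell at 12 days. The median log2 difference was 0.08, 0.25, 0.58 and 0.38. Over all genes tested, 7.4% rose and 4.1% fell at 3 h, 16.8% and 12.0% at 24 h, 25.2% and 23.3% at 3 days, and 26.4% and 23.4% at 12 days. Collagen genes led the rise, COL5A1 going from 77.4 ± 4.34 to 411 ± 8.24 normalised CPM at 3 days (SD, n = 3, log2 fold change 2.41, edgeR adjusted p = 3.01e-11) and COL6A2 from 13.9 ± 2.93 to 75.8 ± 2.76. VCAN, a matrix proteoglycan, fell from 142 ± 12.8 to 80.4 ± 5.61, and ZEB2, a transcription factor of the transition, fell at 24 h, 3 days and 12 days, by 1.28, 0.63 and 0.82 on the log2 scale.

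Markers of fibroblasts moved with this list. Their summed level over 10 genes was 8.68 to 25.6 normalised CPM in control 24 h, 24.3 to 44.6 in SP 3 h and 81.9 to 108 in SP 24 h, and 18.7 to 20.04 in control 3 days, 90.7 to 107 in SP 3 days and 68.1 to 93.0 in SP 12 days. Of 6 tested among the short exposures, THY1 rose at 3 h and 3 rose at 24 h, and of 5 tested in the first 3 rose at both 3 and 12 days. The 3 were COL1A1, THY1 and PDGFRB at 24 h and COL1A1, THY1 and LUM at the longer times. COL1A1 and THY1 made up most of the sum, while POSTN had 0 reads in every library, and COL1A2 and FAP had at most 1 read in any. COL1A1, COL1A2, COL3A1, FAP, PDGFRB and POSTN stand on both lists. The summed level of 9 blood and endothelial markers was 0.897 to 4.14 normalised CPM. Of these, 2 passed the filter in the second table and 3 in the first, and CDH5 fell at 3 and 12 days. Of 10 reference genes, PPIA fell at 24 h, and B2M rose and PGK1 fell at both 3 and 12 days. Their part in the results for the 9 genes was not tested.

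Genes listed as targets of SMAD signalling, 24 tested in the second table and 25 in the first, moved in both directions. At 3 days 15 rose and 7 fell, with a median of 0.51, and at 12 days 13 rose and 6 fell, with a median of 0.49. At 3 h 3 rose (SNAI1, CNN1 and CDKN1A) and BHLHE40 fell, and at 24 h 4 rose (CNN1, SNAI1, PDGFB and BAMBI) and 2 fell, with medians of 0.16 and 0.01. PDGFB, a growth factor, rose at 24 h, 3 days and 12 days by log2 fold changes of 1.10, 2.04 and 1.94. CDKN1A, the cell cycle inhibitor p21, rose from 128 ± 9.04 to 546 ± 87.6 normalised CPM at 12 days (SD, n = 3 each), and SNAI1, a repressor of E-cadherin, rose from 1.21 ± 0.44 to 7.81 ± 0.72 at 3 h and to 4.41 ± 0.47 at 24 h. SKIL, a SMAD co-repressor induced by TGF-beta, fell from 93.0 ± 14.2 to 48.7 ± 2.23 at 3 days. TPM1 and TAGLN, of the actin cytoskeleton, fell by 0.87 and 1.12 on the log2 scale at 24 h.

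Targets of YAP and TEAD other than CCN1, CCN2 and AXL numbered 19 in both tables. At 3 h F3 rose and FOXF2, TGFB2 and ANKRD1 fell, and at 24 h CRIM1 and DOCK5 rose and RBMS3 and NT5E fell. At 3 days 10 rose and 3 fell (IGFBP3, RBMS3 and NT5E), and at 12 days 9 rose and 5 fell, the same 3 with AMOTL2 and LATS2. TGFB2, a TGF-beta ligand, fell at 3 h from 62.6 ± 5.95 to 40.2 ± 2.22 normalised CPM (SD, n = 3, log2 fold change -0.64, edgeR adjusted p = 0.00496) and rose from 38.9 ± 6.13 to 97.8 ± 7.70 at 3 days and 136 ± 11.2 at 12 days. IGFBP3, which binds insulin-like growth factors, fell by 1.23 and 1.29 on the log2 scale at 3 and 12 days. NT5E, the ectonucleotidase CD73, fell by 1.16 at 24 h. ANKRD1 rose from 9.21 ± 0.49 to a widely spread 27.0 ± 12.0 at 12 days (SD, n = 3, log2 fold change 1.54, SE 0.33, edgeR adjusted p = 0.00476). CCN1 fell at that time, a call that some of the fits given above did not keep.

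Paralogs and partners of the 9 genes, 26 tested in each table, had the largest share of rises of the 4 lists. At 3 h 4 rose (PRPH, MERTK, NES and GFAP), and at 24 h 11 rose, while 18 rose and 3 fell at 3 days and 17 rose and 3 fell at 12 days, SMOC1, VTN and PROS1 both times. The median log2 difference was 0.04, 0.52, 0.75 and 0.50. Among intermediate filament genes, NES, which encodes nestin, rose from 6.27 ± 1.84 to 99.7 ± 10.8 normalised CPM at 24 h (SD, n = 3, log2 fold change 3.98, edgeR adjusted p = 3.40e-05), where VIM fell, and from 3.58 ± 0.12 to 32.4 ± 1.34 at 3 days, where VIM rose. SMOC1, a relative of SPARC, went the other way, from 56.5 ± 4.60 to 8.88 ± 1.12 at 3 days and 2.11 ± 2.17 at 12 days. MERTK, a receptor of the AXL family, rose at 3 h by a log2 fold change of 1.56. TNC, the matrix protein tenascin C, rose by 2.14 at 12 days.

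**Figure D4:**
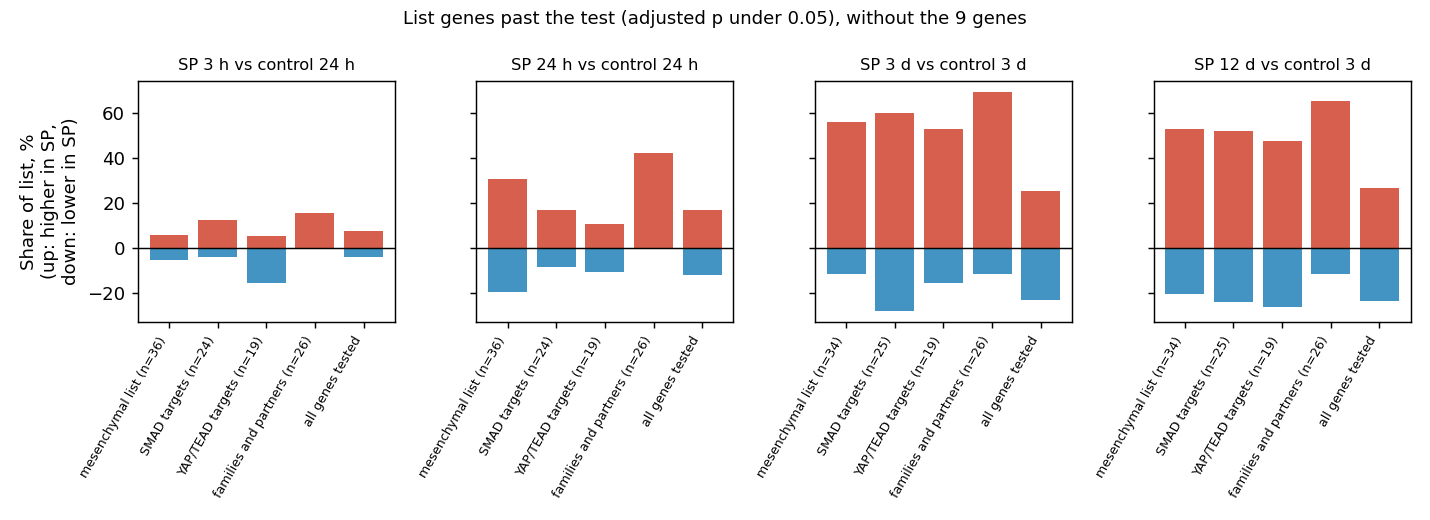
Share of each list that passed the test (vertical axis, percent), above 0 for genes higher with SP and below 0 for genes lower, by list and comparison, without the 9 genes and beside all genes tested. At 3 and 12 days more than 40% of each list rose, beside 25.2 and 26.4% of all genes. The lists share some genes and were chosen with earlier results of these data known.

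The 9 genes also differed in which other genes they tracked. Over 18 libraries, with log2 CPM centred on the control of each table and 11197 genes searched, the closest pattern to SPARC was that of LGI3 (Pearson r = 0.979), and the closest to TGFBI was NGEF (r = 0.974). FN1 was followed most closely by MUC5B (r = 0.976) and VIM by NALCN (r = 0.969), with CNTROB for THBS1 (r = 0.956), CAPN10 for AXL (r = 0.931) and PPFIA1 for CCN1 (r = 0.930). CCN2 with AREL1 (r = 0.861) and LOX with CTBS (r = 0.819) had the least similar partners. Among the 9 themselves the highest values were 0.797 for CCN1 with THBS1 and 0.790 for SPARC with TGFBI, and the lowest were -0.788 for VIM with FN1 and -0.779 for AXL with LOX. These values describe libraries that share groups and depth, and carry no test.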

How the data were processed

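RNA-seq of A549 cells was analysed from 2 deposited tables of raw read counts per Ensembl gene, which the authors made with STAR 2.7.9a on GRCh38 and featureCounts from NEBNext Ultra paired-end libraries. No normalization had been applied to the deposited counts. Strand setting and handling of multi-mapped reads are not given in the sources used here, so overlapping genes may share reads. Of 61541 identifiers, 61369 were found in GENCODE v44 (GRCh38), which gave symbols, positions and exon lengths.

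Genes were kept by filterByExpr (minimum count 10), 17775 and 17377 of them in the tables of longer and shorter exposures. Each table was fitted with its 9 libraries in edgeR 4.0.16 (R 4.3.3), with TMM scaling, a robust quasi-likelihood model, group as the only term and Benjamini-Hochberg adjustment. The difference of the SP effects was taken from a joint fit of 18 libraries (18785 genes). Log2 CPM used a prior count of 2. The study's own test was DESeq2, with an adjusted p under 0.0001 and a fold of 2. DESeq2 1.42.0, RLE factors, no filter, fits of 2 groups, replicate blocks, GC and length offsets, limma 3.58.1 voom and each library left out were alternatives. The scripts were tested on simulated data. Library totals of 14187401 to 43765330 counts set the precision, and LOX had the fewest reads.

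The replicate numbers come from the labels. At 24 h the deviations of libraries with the same number correlated at 0.50, 0.170 and 0.50, against -0.55 to 0.175 for libraries with different numbers. Replicate 2 thus lay within the range of unmatched libraries, so the data give only a weak hint of pairing. The reported calls come from the fit without a block, and blocked values stand beside those 24 h results whose call they change. At 3 h the values for libraries with the same number were -0.09, -0.03 and -0.59, and at 3 and 12 days at most 0.16.

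From each further list, at most 2 genes higher and 2 lower per comparison with control were eligible to be named, among those past the test with a mean of at least 100 counts. The 9 genes and the lists were chosen with earlier results of these data known. Columns of other samples numbered 0.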

Additional observations from a re-analysis of the deposited data

Results flagged for a closer look

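SP groups at 2 exposure times differed in a direct test for 6 results, and the effect of SP against its own control differed for 2. In the first 6, SP and the time in culture cannot be told apart, and in the other 2, the exposure time and the table cannot. Between SP 24 h and SP 3 h, the log2 difference was -0.61 for VIM, 2.22 for SPARC, -0.67 for AXL and -1.19 for CCN1, with edgeR adjusted p-values of 0.00263, 0.00263, 0.0306 and 0.0123. VIM, SPARC, AXL and CCN1 each had SP 24 h libraries that did not overlap those of SP 3 h. Between SP 12 days and SP 3 days it was -0.39 for TGFBI and -0.29 for THBS1, with edgeR adjusted p-values of 0.0109 and 0.0496.

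Between the effects at 3 days and at 24 h, the difference was 1.02 for VIM and 1.14 for TGFBI on the log2 scale, with edgeR adjusted p-values of 4.81e-04 and 0.00189. The VIM effect had opposite signs at the 2 times, -0.65 at 24 h and 0.34 at 3 days. The TGFBI effect was 0.24 at 24 h and 1.34 at 3 days, from control means of 1036 ± 246 and 623 ± 47.2 normalised CPM (SD, n = 3 each, tables scaled separately).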

How the results depend on the processing

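Of 990 values of the 9 genes under alternatives, 901 kept their side of the test, 63 fell short of it, 26 newly passed and none that passed under either setting changed sign. In 50 further cases within the 901, a value that passed in neither setting changed sign. Under the stricter rule (adjusted p under 0.0001 and 2-fold) in the main edgeR fit, the genes past it numbered 0 at 3 h, 0 at 24 h, 2 at 3 days and 1 at 12 days. They numbered 0 between SP 24 h and SP 3 h, 0 between SP 12 days and SP 3 days and 0 for the difference of effects. At 3 h no gene tested met it (smallest edgeR adjusted p = 1.04e-04). With DESeq2, SPARC met it at 24 h (log2 2.32, adjusted p = 3.29e-10) and between SP 24 h and SP 3 h (2.23, adjusted p = 3.07e-09). VIM and TGFBI met it with DESeq2 for the difference of effects (1.03 and 1.15, adjusted p = 8.53e-10 and 1.12e-06). At 3 h, where 1 gene (CCN1) passed, the count was 0 with no filter, 0 in a fit of the 2 groups and 0 with a replicate block in that fit (edgeR adjusted p = 0.124, 0.0869 and 0.201), and 0 to 1 with each library left out. Of all genes, 5.43%, 6.02% and 0.00% passed in the first 3 of these settings, and 5.28 to 12.4% with each library left out. The replicate block in a fit of the 2 groups raised the count at 24 h from 3 to 5, against 38.3% of all genes. Between SP 12 days and SP 3 days it gave 1 in place of 2, against 4.78% of all genes. That 1 was FN1 (edgeR adjusted p = 0.0114), with TGFBI at 0.0523 and THBS1 at 0.0917. The fit of SP 12 days and SP 3 days without a block also gave 1, against 5.44%, which was TGFBI (edgeR adjusted p = 0.0198). With each library left out the counts were 2 to 4 at 24 h, against 15.8 to 37.1% of all genes, and 4 to 4 at 3 days, against 40.1 to 44.1%. At 12 days they were 5 to 7, against 42.0 to 54.9%. Between SP 24 h and SP 3 h they were 2 to 4 (2 without SP 24 h replicate 2), against 9.73 to 15.0%. Between SP 12 days and SP 3 days they were 0 to 5. The 0 came without SP 3 days replicate 3, against 3.32% of all genes, and the 5 without SP 12 days replicate 3, against 28.1%. For the difference of effects they were 2 to 2, against 3.15 to 10.6%. At 12 days the block in the fit of the whole table took CCN2 to an edgeR adjusted p of 0.0515, and between SP 12 days and SP 3 days it took FN1 to 0.00118, as DESeq2 did to 0.0102. The difference of FN1 effects between 3 days and 24 h did not pass in the main fit (log2 -1.17, SE 0.70, edgeR adjusted p = 0.365). Of 20 alternatives, 19 did not pass either. With no filter it was -1.25 with an edgeR adjusted p of 1.41e-09. At 24 h LOX passed with GC and length offsets (log2 1.29, edgeR adjusted p = 0.0185), and AXL had 0.0558 in the fit of the 2 groups. The causes of these shifts were not tested. The low counts of LOX and the spread of FN1 at 24 h limit what could be detected there.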
